A study of Mus musculus with 6 samples.

Results

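The 10 genes described here are core parts of the circadian clock: Per1, Per2, Per3, Cry1, Ciart, Arntl, Npas2, Nr1d1, Nr1d2 and Dbp. They were taken as a list of names from 29385 genes measured in mouse heart, and the list was drawn up with earlier results of these data known. All 10 passed the filter on low genes that left 16804 genes for testing. In nearly every mammalian cell, heart muscle included, the proteins ARNTL (also called BMAL1) and CLOCK, or NPAS2 in its place, bind E-box sequences and switch on the Per and Cry genes. PER and CRY proteins return to the nucleus and repress ARNTL and CLOCK, which closes a daily loop. An accessory loop runs through the REV-ERB repressors, encoded by Nr1d1 and Nr1d2, which bind ROR elements and hold Arntl down, while DBP activates genes with D-boxes. Arntl RNA therefore normally peaks at the opposite phase of the day from Dbp, Nr1d1 and Per RNA. Any sample shows these RNAs only as they were at the hour when it was taken.

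Poly(A) RNA of mouse hearts was sequenced in 6 libraries, 2 in each of 3 groups. The hearts were collected 12 months after newborn mice had been dosed. Vehicle was given to Myh6 RH/+ mice (here RH/+ hearts) and to Myh6 RH/RQ mice (here RH/RQ vehicle hearts). The third group was Myh6 RH/RQ given AAV-hpCas13d, an AAV vector for the RNA-cutting enzyme Cas13d (here treated hearts). All 3 groups thus carried the RH allele of Myh6, the gene of the alpha myosin heavy chain, and none is labelled wild-type. The labels spell out neither RH nor RQ, and name no target of the enzyme and no promoter that drives it. Whether the 2 libraries of a group come from separate animals is not stated either, and their sample numbers differ only in the first digit. The p-values here reflect the spread between libraries, which may be technical.

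The labels give no hour of collection. Group and hour of the day therefore cannot be told apart for any result on these genes. Libraries held 36269261 to 51017058 reads, and 3 reads, the limit that a count of 0 allows, were worth 0.0588 to 0.0827 CPM, the gene count scaled to the library total (counting error only). Xist was at 265 to 326 CPM in the RH/+ and treated libraries and at 0.274 and 0.0516 CPM in those of RH/RQ vehicle hearts, where the Y-linked Ddx3y was at 85.2 CPM in each. Genotype and treatment cannot be told apart from this sex-linked pattern in either comparison that involves RH/RQ vehicle hearts, whereas treated and RH/+ hearts share it. Cardiomyocyte markers were abundant throughout, with 7 markers summing to 46716 to 56693 CPM. Fibroblast markers summed to 822 to 882 CPM in RH/+ hearts, 1329 to 1428 CPM in RH/RQ vehicle and 1206 to 1406 CPM in treated hearts over 6 genes, none of which was at 0. Dcn made up most of that sum, at means of 541, 816 and 875 CPM. Other members had other orders, with Col1a1 at 38.9, 127 and 55.9 CPM, Col1a2 at 81.7, 178 and 103 CPM, and Tcf21 at 12.4, 10.5 and 12.0 CPM. In the same order of groups, 4 smooth muscle markers summed to 214 to 272, 96.0 to 131 and 95.7 to 102 CPM. Acta2 made up that drop, at means of 216, 84.7 and 74.8 CPM, while Myh11 was at 24.8, 27.0 and 22.6 CPM. By limma, Acta2 was called lower in both RH/RQ groups against RH/+, and the other 3 markers were not called. The 6 macrophage markers summed to 146, 194 to 195 and 153 to 183 CPM. The 5 blood genes summed to 251 to 302, 230 to 348 and 158 to 184 CPM, lowest in treated hearts. No gene of these lists was at 0 in all libraries. These sums are marker levels, and genes of a list did not all move alike. The part of these levels and of the sex-linked pattern in the clock results was not tested. In bulk tissue, fewer cells of a type and less RNA per cell cannot be told apart.

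Promoter sequences show which clock elements lie at the starts of these genes. RefSeq windows from 250 bases before to 50 after the start (build GRCm38.p6) were found for 9 of the 10 genes, Per2 being the exception. Both strands were searched for the E-box CACGTG, the E-prime box CACGTT, the D-box TTANGTAA and the ROR element core TAGGTCA, and no matches overlapped. The 4 windows printed here carry the elements of the loops described above and belong to genes whose levels are given in detail. They are Per1 at chr11:69098699-69098998 (plus strand), Ciart at chr3:95882179-95882478 (minus strand), Per3 at chr4:151044616-151044915 (minus strand) and Arntl at chr7:113207261-113207560 (plus strand). Each is written from 5′ to 3′ on the strand of its gene, with the matched element in capitals.
Per1: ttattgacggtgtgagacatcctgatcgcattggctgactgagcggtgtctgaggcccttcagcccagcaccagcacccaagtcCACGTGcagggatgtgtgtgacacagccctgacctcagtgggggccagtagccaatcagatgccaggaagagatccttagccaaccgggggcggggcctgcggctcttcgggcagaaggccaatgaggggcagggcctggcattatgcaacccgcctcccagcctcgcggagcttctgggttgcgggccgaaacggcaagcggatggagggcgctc
Ciart: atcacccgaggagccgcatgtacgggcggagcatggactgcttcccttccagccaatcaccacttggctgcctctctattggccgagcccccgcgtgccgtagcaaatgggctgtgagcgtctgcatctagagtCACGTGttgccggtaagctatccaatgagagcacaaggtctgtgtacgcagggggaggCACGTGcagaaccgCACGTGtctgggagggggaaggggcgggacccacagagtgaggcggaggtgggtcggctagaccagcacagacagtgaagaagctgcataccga
Per3: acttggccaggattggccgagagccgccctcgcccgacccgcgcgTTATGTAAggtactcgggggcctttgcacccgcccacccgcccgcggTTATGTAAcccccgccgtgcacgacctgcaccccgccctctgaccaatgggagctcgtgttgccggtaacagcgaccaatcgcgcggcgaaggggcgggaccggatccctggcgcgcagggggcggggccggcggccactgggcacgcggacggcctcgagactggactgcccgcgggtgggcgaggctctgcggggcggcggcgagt
Arntl: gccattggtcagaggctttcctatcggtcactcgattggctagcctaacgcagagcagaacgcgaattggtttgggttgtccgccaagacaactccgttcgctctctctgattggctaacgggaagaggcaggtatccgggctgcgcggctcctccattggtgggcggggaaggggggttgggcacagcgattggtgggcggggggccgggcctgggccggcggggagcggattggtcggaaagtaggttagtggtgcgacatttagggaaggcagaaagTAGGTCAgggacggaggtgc

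The Per1 window held 1 E-box, whose first base lay 166 bases before the start, and the Ciart window held 3, at 116, 58 and 44 bases before it. Cry1 had an E-box 60 bases and an E-prime box 79 bases before its start, and Nr1d1 an E-prime box 28 bases before. The Per3 window held 2 D-boxes, both TTATGTAA, at 205 and 158 bases before the start. The Arntl window shown carried the ROR core 30 bases after the transcription start, near the end of the printed sequence, and there was none in its other, overlapping window. The windows of Dbp, Npas2 and Nr1d2, and a second Per1 window at chr11:69099902-69100201, held none of these letters. Over all 32851 RefSeq windows of this length, 7.15% held the E-box, 4.68% the E-prime box, 2.32% the D-box and 2.61% the ROR core. A match is a description of these letters only.

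Relative to RH/+ hearts, RH/RQ vehicle hearts had more Arntl RNA and less Per3 and Nr1d2 RNA. Relative to RH/RQ vehicle hearts, treated hearts had more Per1, Per2, Per3 and Nr1d2 RNA, although only 4 of 17 alternative fits called the Nr1d2 rise. Per1 stood alone among the 10 genes in also being above RH/+ by the test. Changes were tested with limma on log2(CPM + 1), adjusted over all 16804 genes and called at an adjusted p under 0.05; fold changes on that scale understate the change of low genes. Between RH/RQ vehicle and RH/+ hearts 1 member rose, 2 fell and 7 did not pass, where 4.99% of all tested genes were called (3.48% higher and 1.51% lower). For that pair edgeR called 1 member higher and 4 lower, and DESeq2 1 higher and 3 lower. Between treated and RH/RQ vehicle hearts 4 rose and 6 did not pass, where 2.05% of all genes were called (1.22% higher and 0.827% lower). By edgeR and by DESeq2, 3 members were higher there. None fell there by limma, although 1 was lower at an unadjusted p under 0.05 and 1 by edgeR and by DESeq2, Arntl in each case. Between treated and RH/+ hearts 1 rose and 9 did not pass, where 2.86% of all genes were called (2.33% higher and 0.53% lower), and 0 fell by limma, by edgeR, by DESeq2 or at an unadjusted p under 0.05. Each pair of comparisons shares a group, so their calls are not independent, and a low or high RH/RQ vehicle value moves the first 2 comparisons in opposite directions.

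**Figure D1:**
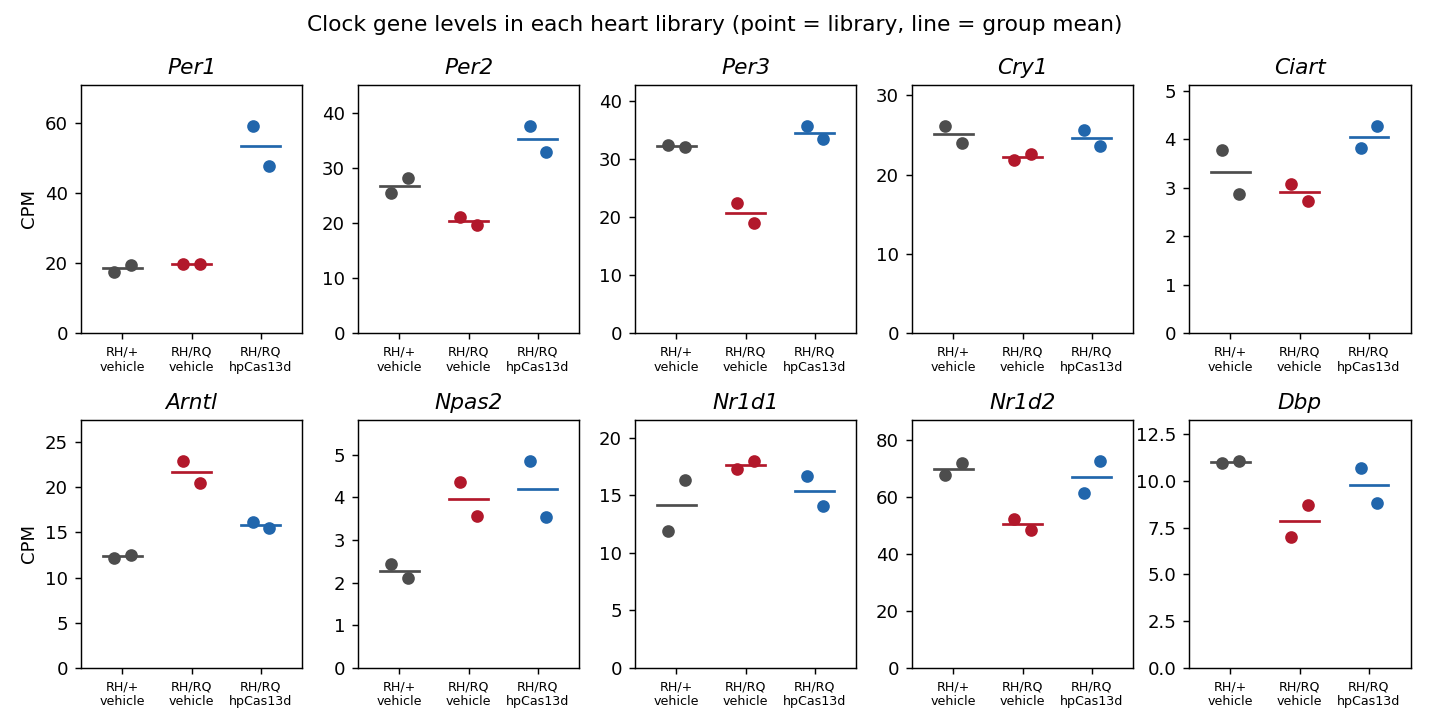
CPM of each of the 10 clock genes in the 6 libraries, 1 panel a gene, with points for libraries and a bar for the mean of the 2 libraries of each group. Per1 is separated in the treated libraries, Arntl is highest in the RH/RQ vehicle libraries, and Per3 and Nr1d2 are lowest there.

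The median log2 fold change of the 10 genes was -0.15 for RH/RQ vehicle against RH/+ hearts, 0.33 for treated against RH/RQ vehicle hearts and 0.17 for treated against RH/+ hearts. Over all tested genes it was 0.04, 0.04 and 0.08 in the same order. The libraries of the 2 groups did not overlap for 9 of the 10 genes in the first comparison, with 4 higher and 5 lower, where 49.3% of all genes did not overlap (30.8% higher and 18.5% lower). In the treated against vehicle comparison they did not overlap for 9 genes, 7 higher and 2 lower, beside 40.5% of all genes (26.2% and 14.4%). Between treated and RH/+ hearts the figure was 7 genes, 6 higher and 1 lower, beside 44.7% (35% and 9.66%).

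**Figure D2:**
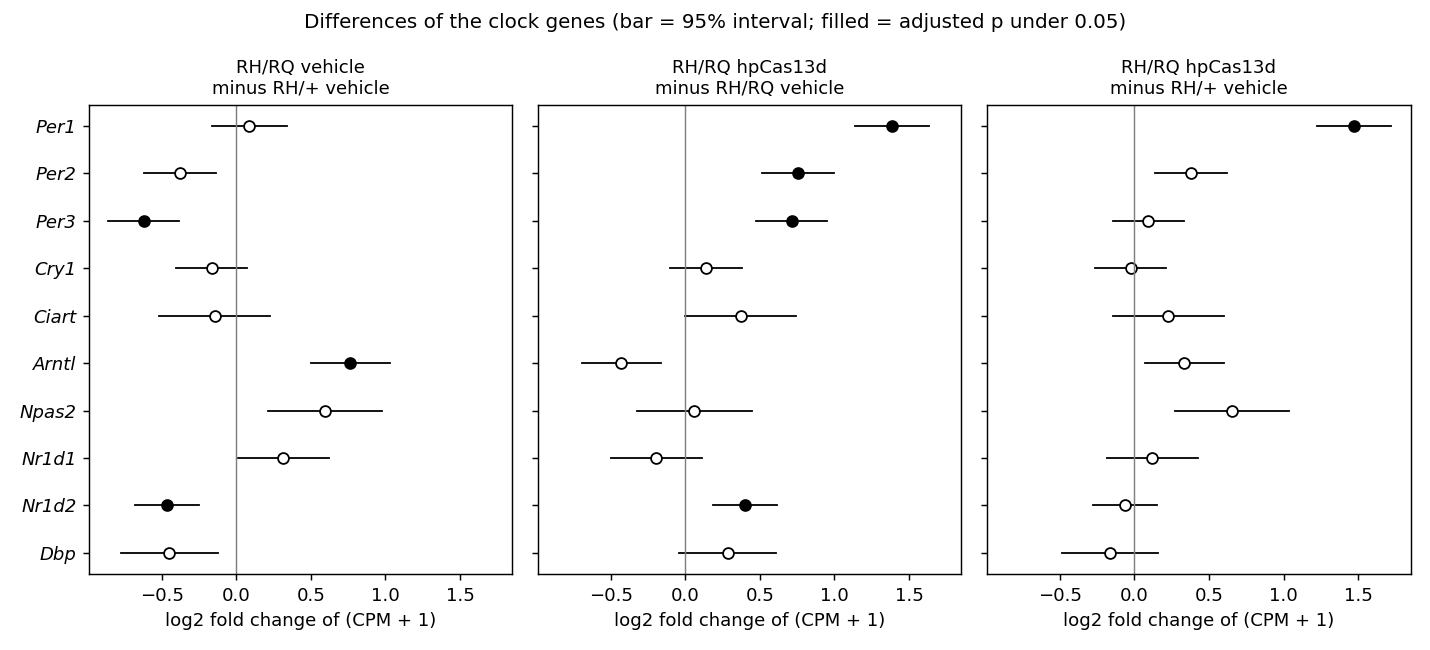
Log2 fold change of each clock gene on the log2(CPM + 1) scale in the 3 comparisons, with 95% intervals from limma as bars and filled symbols for an adjusted p under 0.05. Per1 lies at 1.38 and 1.47 in the comparisons that involve treated hearts and at 0.09 in the comparison of vehicle hearts.

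The Period genes encode the repressors that accumulate and then shut off their own transcription. Per1 (chromosome 11, 69095217 to 69109960, plus strand, GRCm38) is also quickly inducible by light, glucocorticoid and cyclic AMP signals in many tissues. It was at 17.6 and 19.5 CPM in RH/+ hearts, 19.8 and 19.6 CPM in RH/RQ vehicle, and 59.1 and 47.6 CPM in treated hearts. The 4 vehicle libraries lay close together and both treated libraries far above them, without overlap. Means were 18.5 ± 1.35, 19.7 ± 0.0952 and 53.4 ± 8.11 CPM (SD, n = 2 each), so treated hearts had 2.71 times the level of RH/RQ vehicle hearts and 2.88 times that of RH/+. Per1 rose by 1.38 on the log2 scale (SE 0.12; limma adjusted p = 9.66e-08) against RH/RQ vehicle and by 1.47 (SE 0.12; limma adjusted p = 4.77e-08) against RH/+ hearts. Against RH/RQ vehicle hearts its p ranked 13 of 16804 genes and its rise ranked 6. Between the 2 vehicle groups the difference was 0.09 (95% interval -0.16 to 0.34; limma adjusted p = 0.785). The rise over RH/+ was not called without a filter on low genes (limma adjusted p = 0.0516, against 4.77e-08 with it), and was called in the other 16 of 17 alternatives.

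Per2 (chromosome 1, 91415982 to 91459324, minus strand), a Period gene needed for stable daily behaviour in mice, followed another order. Its level was 25.3 and 28.1 CPM in RH/+ hearts, 21.1 and 19.7 CPM in RH/RQ vehicle, and 37.5 and 32.8 CPM in treated hearts. The 3 groups did not overlap, with RH/RQ vehicle lowest and treated highest. Per2 rose by 0.76 (SE 0.12; limma adjusted p = 0.000388) in treated against RH/RQ vehicle hearts, 1.73 times the level, a call that was lost without a filter on low genes (limma adjusted p = 0.124) and made in the other 16 of 17 alternatives. The difference of RH/RQ vehicle from RH/+ was -0.37 (95% interval -0.61 to -0.13; limma adjusted p = 0.067), and 8 of 17 alternatives called it, with adjusted p between 0.0106 (DESeq2) and 0.416. Against RH/+, treated hearts differed by 0.38 (95% interval 0.14 to 0.62; limma adjusted p = 0.0821).

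Per3 (chromosome 4, 151003652 to 151044665, minus strand), a Period gene that is dispensable for the core oscillation, was at 32.4 and 32.0 CPM in RH/+ hearts, 22.5 and 18.9 CPM in RH/RQ vehicle, and 35.6 and 33.4 CPM in treated hearts. Both RH/RQ vehicle libraries were below the other 4. Per3 fell by 0.62 (SE 0.11; limma adjusted p = 0.00153) in RH/RQ vehicle against RH/+ hearts, to 0.643 times the level. It was higher by 0.71 (SE 0.11; limma adjusted p = 0.000694) in treated than in RH/RQ vehicle hearts, and treated differed from RH/+ by 0.09 (95% interval -0.14 to 0.33; limma adjusted p = 0.754). The fall was not called without RH/RQ vehicle replicate 2 (limma adjusted p = 0.0515), nor without a filter on low genes (0.101), over a range of 1.31e-06 to 0.101 in 17 alternatives. Dropping the filter also ended the call of treated against RH/RQ vehicle hearts (limma adjusted p = 0.126), which the other 16 alternatives made. Of the Period genes, limma thus called Per3 between the vehicle groups and not Per1 or Per2, and the difference between the genes was not tested.

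The other repressors of ARNTL and CLOCK did not pass in any comparison. Cry1 (chromosome 10, 85131700 to 85185064, minus strand), which encodes a strong repressor of the complex, was at 26.1 and 24.0 CPM in RH/+ hearts, 21.8 and 22.7 CPM in RH/RQ vehicle, and 25.6 and 23.6 CPM in treated hearts. The RH/RQ vehicle libraries were below the other 4. Its log2 differences were -0.17 (95% interval -0.41 to 0.07), 0.14 (-0.10 to 0.38) and -0.03 (-0.27 to 0.21), with limma adjusted p of 0.516, 0.683 and 0.949 for RH/RQ vehicle against RH/+, treated against RH/RQ vehicle and treated against RH/+. Ciart (chromosome 3, 95878503 to 95882251, minus strand), also known as Chrono, encodes a repressor of the same complex. It was at 3.78 and 2.88 CPM in RH/+ hearts, 3.08 and 2.73 CPM in RH/RQ vehicle, and 3.83 and 4.27 CPM in treated hearts, from 106 to 162 reads. The RH/+ and RH/RQ vehicle libraries overlapped, and the treated libraries were highest by a small margin. Its differences in that order were -0.14 (-0.52 to 0.23), 0.37 (-0.00 to 0.74) and 0.23 (-0.14 to 0.60), with limma adjusted p of 0.758, 0.401 and 0.59.

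Arntl (chromosome 7, 113207465 to 113314126, plus strand) encodes an activator without which mouse tissues lose their rhythm. Its level was 12.2 and 12.5 CPM in RH/+ hearts, 22.9 and 20.5 CPM in RH/RQ vehicle, and 16.2 and 15.5 CPM in treated hearts. All 3 groups were apart, RH/+ lowest and RH/RQ vehicle highest. It rose by 0.76 (SE 0.13; limma adjusted p = 0.000515) in RH/RQ vehicle against RH/+ hearts, 1.76 times the level, in the opposite direction from Per3 and Nr1d2. Treated hearts differed from RH/RQ vehicle by -0.43 (95% interval -0.69 to -0.16; limma adjusted p = 0.095) and from RH/+ by 0.33 (0.07 to 0.60; limma adjusted p = 0.194). Of 17 alternatives 5 called the difference of treated from RH/RQ vehicle, among them edgeR (adjusted p = 0.0184) and TMM factors (limma adjusted p = 0.0306), over a range of 0.0122 to 0.39. The authors' deposited table lists it with a log2 fold change of -0.51 and an adjusted p of 0.0483. The rise in RH/RQ vehicle hearts was not called without a filter on low genes (limma adjusted p = 0.0589), and was called in the other 16 of 17 alternatives.

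Npas2 (chromosome 1, 39193731 to 39363236, plus strand), a stand-in for CLOCK as partner of ARNTL, was a low gene here, with 84 to 222 reads a library. It was at 2.44 and 2.10 CPM in RH/+ hearts, 4.35 and 3.56 CPM in RH/RQ vehicle, and 4.85 and 3.53 CPM in treated hearts. Both RH/+ libraries were below the other 4, while the RH/RQ vehicle and treated libraries overlapped. The differences were 0.60 (95% interval 0.21 to 0.98) for RH/RQ vehicle against RH/+, 0.06 (-0.32 to 0.44) for treated against RH/RQ vehicle and 0.66 (0.27 to 1.04) for treated against RH/+. Their limma adjusted p were 0.067, 0.938 and 0.0586, and 5, 0 and 3 of 17 alternatives called them.

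The REV-ERB genes are the repressor arm that acts on Arntl. Nr1d2 (chromosome 14, 18204054 to 18239127, minus strand), which encodes REV-ERB beta, was at 67.6 and 71.7 CPM in RH/+ hearts, 52.3 and 48.3 CPM in RH/RQ vehicle, and 61.3 and 72.6 CPM in treated hearts. The RH/RQ vehicle libraries were below the other 4. Nr1d2 fell by 0.46 (SE 0.10; limma adjusted p = 0.00804) in RH/RQ vehicle against RH/+ hearts, to 0.722 times the level. That call was lost without RH/+ replicate 2 (limma adjusted p = 0.103), without RH/RQ vehicle replicate 2 (0.107) and without a filter on low genes (0.169, the highest of 17 alternatives, 14 of which made the call). It was higher by 0.40 (SE 0.10; limma adjusted p = 0.0422) in treated than in RH/RQ vehicle hearts, but 4 of 17 alternatives made that call, with adjusted p between 0.0117 and 0.434, and it was lost without any single library but treated replicate 1 (limma adjusted p of 0.0545 to 0.434). The authors' deposited table gives it an adjusted p of 0.21. Treated hearts differed from RH/+ by -0.06 (95% interval -0.28 to 0.15; limma adjusted p = 0.834).

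Nr1d1 (chromosome 11, 98767932 to 98775333, minus strand), which encodes REV-ERB alpha, had another order of groups than Nr1d2. Its level was 11.9 and 16.4 CPM in RH/+ hearts, 17.3 and 18.0 CPM in RH/RQ vehicle, and 16.7 and 14.0 CPM in treated hearts. The RH/+ libraries differed more from each other than the group means did, and the treated libraries lay within their range except for replicate 1. Log2 differences were 0.32 (95% interval 0.01 to 0.62), -0.19 (-0.50 to 0.11) and 0.12 (-0.18 to 0.42), with limma adjusted p of 0.269, 0.644 and 0.753, in the order used for Cry1. Its exons share 263 bases, 8.55% of their length, with Thra on the opposite strand, which was at a mean of 71.6 CPM. Strand use in the counting was not given in the sources used here, so reads from the shared stretch cannot be told apart.

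Dbp (chromosome 7, 45705088 to 45710203, plus strand) encodes a PAR bZIP activator of D-box genes and is a widely used readout of clock output. It was at 10.9 and 11.1 CPM in RH/+ hearts, 6.98 and 8.71 CPM in RH/RQ vehicle, and 10.7 and 8.81 CPM in treated hearts. RH/RQ vehicle libraries were the lowest, with RH/RQ vehicle replicate 2 only just below treated replicate 2. Differences were -0.45 (95% interval -0.77 to -0.12), 0.28 (-0.04 to 0.61) and -0.16 (-0.49 to 0.16) in the same order, with limma adjusted p of 0.112, 0.482 and 0.676. For the vehicle groups 1 of 17 alternatives called it, edgeR with an adjusted p of 0.0431. Dbp exons share 539 bases, 18.0% of their length, with Sphk2 on the opposite strand, at a mean of 21.1 CPM.

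Ratios of Arntl to genes of the opposite phase within a library do not depend on how libraries are scaled. They are ratios of CPM, uncorrected for gene length, and only their change between libraries is read here. Arntl to Per3 was 0.377 and 0.391 in RH/+, 1.02 and 1.08 in RH/RQ vehicle, and 0.455 and 0.464 in treated hearts. Arntl to Nr1d2 was 0.181 and 0.175, 0.438 and 0.425, and 0.265 and 0.214 in the same libraries. Arntl to Dbp was 1.12 and 1.13 in RH/+, 3.28 and 2.36 in RH/RQ vehicle, and 1.51 and 1.76 in treated hearts. For each of these 3 ratios the RH/RQ vehicle libraries were highest, the RH/+ libraries lowest and the treated libraries between them. Arntl to Per2 was 0.482 and 0.446 in RH/+, 1.09 and 1.04 in RH/RQ vehicle, and 0.432 and 0.472 in treated hearts, so the RH/+ and treated libraries overlapped. Arntl to Per1 was ordered otherwise, at 0.695 and 0.644 in RH/+, 1.16 and 1.04 in RH/RQ vehicle, and 0.274 and 0.325 in treated hearts, with the treated libraries lowest. No ratio was formed to Nr1d1, which the opening also names as of the opposite phase. Its levels ran in the same direction as those of Arntl here (Pearson r = 0.70 over 6 libraries). These ratios are descriptions of genes already given above and carry no test.

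**Figure D3:**
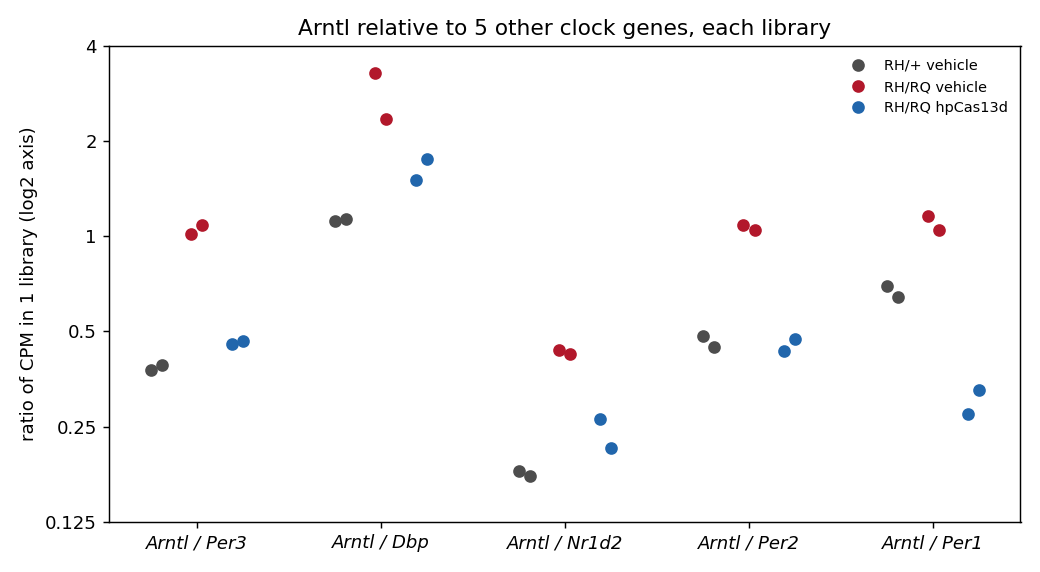
Ratio of Arntl CPM to the CPM of 5 other clock genes in each of the 6 libraries (points, coloured by group), on a log2 axis. All 5 ratios are highest in the RH/RQ vehicle libraries, and Arntl to Per1 is lowest in the treated libraries, at 0.274 and 0.325.

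Per1 also moved relative to its own family. Per1 to Per3 was 0.542 and 0.608 in RH/+, 0.880 and 1.04 in RH/RQ vehicle, and 1.66 and 1.43 in treated hearts. Per1 to Per2 was 0.693 in each RH/+ library, 0.938 and 0.999 in RH/RQ vehicle, and 1.58 and 1.45 in treated hearts. Both ratios were lowest in RH/+ and highest in treated hearts, with no overlap of groups.

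Per kilobase of exon, the scale on which genes can be compared, Nr1d2 was the most abundant of the 10 in RH/+ hearts at 12.9 ± 0.536 CPM per kilobase (SD, n = 2), followed by Cry1 at 7.50 ± 0.438. Nr1d1 at 4.60 ± 1.02 and Per2 at 4.56 ± 0.335 did not differ beyond their spread, and neither did Per3 at 3.35 ± 0.0279 and Per1 at 3.29 ± 0.239. Dbp lay between these pairs at 3.68 ± 0.0298. Arntl at 1.64 ± 0.0300 and Ciart at 1.47 ± 0.281 likewise overlapped, and Npas2 was the lowest at 0.474 ± 0.0497 (all SD, n = 2). In treated hearts Per1 stood at 9.48 ± 1.44 CPM per kilobase, above Cry1 at 7.37 ± 0.438 and below Nr1d2 at 12.4 ± 1.48. In RH/+ hearts its mean was below both, and below those of Nr1d1 and Per2. In RH/RQ vehicle hearts Arntl, at 2.89 ± 0.225 CPM per kilobase, lay above Per3, at 2.16 ± 0.260, and the reverse held in RH/+ and treated hearts.

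Calls were also made among 11 further clock genes, which include other activators, repressors and nuclear receptors. In RH/RQ vehicle against RH/+ hearts 2 rose, 1 fell and 8 did not pass, where 3.48% of all tested genes rose and 1.51% fell. For these 11 genes edgeR called 0 higher and 1 lower and DESeq2 0 higher and 2 lower. Clock, the usual partner of ARNTL, was at 42.8 and 44.3 CPM in RH/+ hearts, 58.2 and 54.6 CPM in RH/RQ vehicle, and 46.3 and 51.4 CPM in treated hearts, and was higher in RH/RQ vehicle than in RH/+ by 0.36 (SE 0.10; limma adjusted p = 0.036). Rorb, a retinoid-related orphan receptor, was at 1.23 and 1.15 CPM in the RH/+ libraries and 2.20 and 2.47 CPM in RH/RQ vehicle, a difference of 0.60 (SE 0.17; limma adjusted p = 0.0447). Hlf, a PAR bZIP factor like Dbp, went from 26.1 and 24.7 CPM to 19.9 and 17.5 CPM, a fall by 0.43 (SE 0.12; limma adjusted p = 0.0444). Of 17 alternatives 8 called Clock, 8 Rorb and 10 Hlf, with adjusted p for Clock between 0.0142 and 0.305. Leaving out any 1 of the 4 libraries compared ended each of these calls, with limma adjusted p from 0.105 to 0.305 for Clock, 0.123 to 0.258 for Rorb and 0.0670 to 0.347 for Hlf. In treated libraries Rorb was at 2.18 and 1.98 CPM and Hlf at 23.4 and 27.3 CPM. Rorb had only 47 and 46 reads in the RH/+ libraries. The RH/RQ vehicle libraries were those low in Xist, while the treated libraries had Xist, and the part of this pattern in the 3 genes was not tested.

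In treated against RH/RQ vehicle hearts limma, edgeR and DESeq2 called 0 of those 11 genes, and 3 had an unadjusted p under 0.05, all higher. Between treated and RH/+ hearts the same tools called 0 of the 11, and 1 had an unadjusted p under 0.05. Tef, the remaining PAR bZIP factor, was at 148 and 158 CPM in RH/+ hearts, 127 and 128 CPM in RH/RQ vehicle, and 150 and 158 CPM in treated hearts and did not pass. Of 12 genes for kinases and ubiquitin ligases that act on PER and CRY proteins, limma, edgeR and DESeq2 called 0 in each comparison, with an unadjusted p under 0.05 for 0, 0 and 1 of them.

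**Figure D4:**
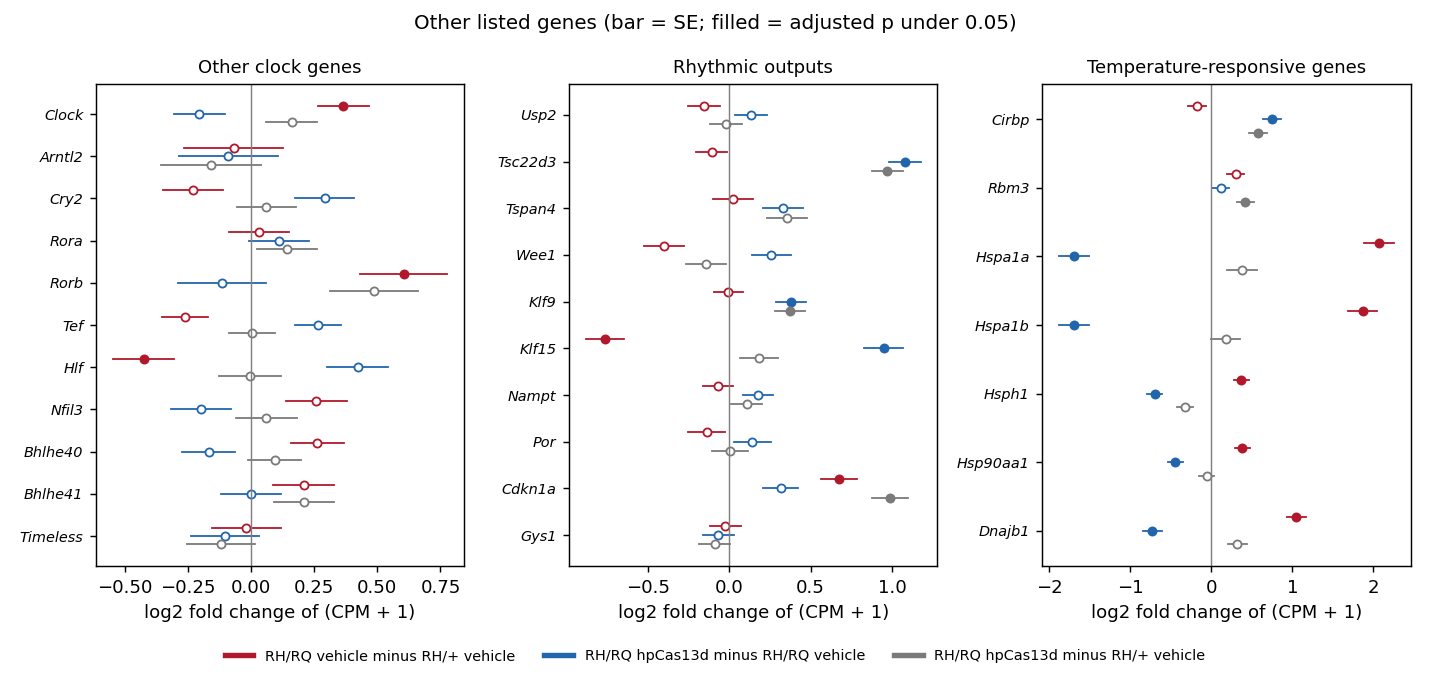
Log2 fold change of (CPM + 1), with its SE as a bar, of further clock genes, rhythmic output genes and temperature-responsive genes in the 3 comparisons (colours), filled at an adjusted p under 0.05. Tsc22d3 lies near 1 in both comparisons of treated hearts, and Klf15 is at -0.76 and 0.95 in the comparisons that involve RH/RQ vehicle hearts.

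Of 10 genes that are commonly driven by the clock in peripheral tissues, 1 rose and 1 fell in RH/RQ vehicle against RH/+ hearts. In treated hearts 3 rose against RH/RQ vehicle and 3 rose against RH/+. Over all tested genes, 3.48% rose and 1.51% fell in the first comparison, and 1.22% and 2.33% rose in the other comparisons. Klf15, a Krüppel-like factor that links the clock to nitrogen and lipid metabolism in heart, was at 40.5 and 42.3 CPM in RH/+ hearts, 23.2 and 24.7 CPM in RH/RQ vehicle, and 53.5 and 41.5 CPM in treated hearts. It fell by 0.76 (SE 0.12; limma adjusted p = 0.000186) between the vehicle groups and was higher by 0.95 (SE 0.12; limma adjusted p = 2.45e-05) in treated than in RH/RQ vehicle hearts. Its RH/RQ vehicle libraries, like those of Per3, were below the other 4. Cdkn1a, a cell cycle inhibitor, was at 19.5 and 22.4 CPM in RH/+ hearts, 33.5 and 34.2 CPM in RH/RQ vehicle, and 42.0 and 42.8 CPM in treated hearts. It rose by 0.67 (SE 0.11; limma adjusted p = 0.000398) in RH/RQ vehicle and by 0.99 (SE 0.11; limma adjusted p = 8.6e-06) in treated hearts against RH/+.

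Tsc22d3 encodes GILZ, a leucine zipper protein induced by glucocorticoids. It was at 81.2 and 84.8 CPM in RH/+ hearts, 82.5 and 71.7 CPM in RH/RQ vehicle, and 171 and 157 CPM in treated hearts, the same arrangement as Per1, with 4 similar vehicle libraries and 2 high treated ones. Its rise was 1.08 (SE 0.10; limma adjusted p = 1.53e-07) against RH/RQ vehicle and 0.97 (SE 0.10; limma adjusted p = 1.37e-06) against RH/+ hearts. Klf9, another glucocorticoid-induced Krüppel-like factor, was at 94.3 to 96.3 CPM in the 4 vehicle libraries and 126 and 121 CPM in treated hearts, higher by 0.38 (SE 0.09; limma adjusted p = 0.0239) and 0.37 (SE 0.09; limma adjusted p = 0.0217), each called in 9 of 17 alternatives. The Klf9 calls were lost without treated replicate 1 or either library of the vehicle group compared (limma adjusted p from 0.0842 to 0.226). Both genes also stand on a list of 8 glucocorticoid-responsive genes, 7 of which were tested. Of those 7, 1 rose (Errfi1) and 1 fell (Zbtb16) between the vehicle groups, where 3.48% of all tested genes rose and 1.51% fell. In treated against RH/RQ vehicle hearts 2 rose (Tsc22d3 and Klf9), beside 1.22% of all tested genes. In treated against RH/+ hearts 4 rose (these and Errfi1 and Sgk1), beside 2.33%. By edgeR and by DESeq2, 2 were higher and 1, Zbtb16, was lower in that last comparison. Errfi1 was already higher in RH/RQ vehicle than in RH/+ hearts, by 0.57 (limma adjusted p = 0.00231). Its difference of treated from RH/RQ vehicle hearts was 0.17 (limma adjusted p = 0.563), unlike that of Tsc22d3. Fkbp5 and Mt1 did not pass in any comparison. The Sgk1 call was made in 9 of 17 alternatives and lost without treated replicate 1 or either RH/+ library (limma adjusted p from 0.0730 to 0.203), and the Zbtb16 fall between the vehicle groups ended without replicate 2 of RH/+ (0.188) and without replicate 1 of RH/RQ vehicle hearts (0.324). Hormone levels were not measured, and the part of glucocorticoid signals in the Per1 values was not tested.

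Some temperature-responsive genes also differed between the groups. Of 7 such genes 5 rose in RH/RQ vehicle against RH/+ hearts, all of them heat shock genes, where 3.48% of all tested genes rose. In treated against RH/RQ vehicle hearts 5 fell while 1 rose, where 0.827% of all tested genes fell and 1.22% rose. In the comparison of vehicle groups edgeR called 3 higher. The calls of Hsph1 and Hsp90aa1 there ended when any 1 of the 4 RH/+ and RH/RQ vehicle libraries was dropped (limma adjusted p from 0.0766 to 0.314 and from 0.0813 to 0.186). In treated against RH/RQ vehicle hearts the Hsp90aa1 call ended without treated replicate 1 and without either library of RH/RQ vehicle hearts (limma adjusted p from 0.0531 to 0.175). The gene that rose was Cirbp, which encodes a cold-inducible RNA-binding protein, at 44.0 and 45.7 CPM in RH/+ hearts, 43.9 and 35.8 CPM in RH/RQ vehicle, and 73.7 and 61.4 CPM in treated hearts, a log2 difference of 0.75 (SE 0.11; limma adjusted p = 0.000348). Against RH/+ hearts Cirbp and Rbm3, its close relative, were higher in treated hearts by 0.57 (SE 0.11; limma adjusted p = 0.00461) and 0.42 (SE 0.11; limma adjusted p = 0.0285). The heat shock gene Hsph1 differed by -0.32 in that comparison (limma adjusted p = 0.0724). Of 17 alternatives 9 called Rbm3 and 7 called Hsph1 there. By edgeR and by DESeq2, 1 of the 7 genes was higher and 1 lower in treated than in RH/+ hearts. The Cirbp call was lost without treated replicate 1 (limma adjusted p = 0.0772) or RH/+ replicate 1 (0.0627), and the Rbm3 call without RH/+ replicate 2 or either treated library (limma adjusted p up to 0.403). Of 10 immediate early genes, which respond to acute stimuli, 5 rose between the vehicle groups (beside 3.48% of all tested genes). In treated hearts 2 fell against RH/RQ vehicle (beside 0.827%) and 4 rose against RH/+ (beside 2.33%). Their part in the clock values was not tested.

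Genes outside these lists whose levels ran most like Arntl over the 6 libraries were Zbtb43, Srpx, Fbn1, Papln and Efr3b, with Pearson r from 0.992 to 0.996 on log2(CPM + 1). Fbn1, which encodes fibrillin of the extracellular matrix, was at 37.9 and 40.2 CPM in RH/+ hearts, 75.7 and 68.7 CPM in RH/RQ vehicle, and 52.2 and 53.0 CPM in treated hearts. Genes most like Dbp were Mipep, Ppm1h, Nt5dc2, Tmem246 and Cyb5d2, with r from 0.977 to 0.995. For Per1, an anchor chosen after its values were seen, they were Cep170b, Sertad4, Rps6.ps4, S1pr1 and Sumf2, with r from 0.991 to 0.998. S1pr1, a sphingosine phosphate receptor of endothelium, was at 61.3 and 63.8 CPM in RH/+ hearts, 62.6 and 59.8 CPM in RH/RQ vehicle, and 101 and 95.6 CPM in treated hearts. Among the members themselves, r with Arntl was -0.88 for Dbp, -0.86 for Nr1d2, -0.79 for Cry1 and -0.78 for Per3, and 0.74 for Npas2 and 0.70 for Nr1d1. It was -0.51 for Per2, -0.37 for Ciart and -0.01 for Per1. These 6 points fall into 3 groups and share library depth, so the coefficients describe the arrangement of the groups and have no p.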

How the data were processed

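The authors deposited, per the file headers, CPM for each gene in each library, and for each pair of groups a mean signal per gene, a log2 fold change and its SE, a score (the test statistic), and raw and adjusted p-values. The submitters' processing notes name HISAT2, HTSeq, DESeq2 and the mm10 build. Their versions, the annotation and the strandedness are not given in the sources used here. Whole reads were recovered from the steps in CPM, 100% of values coming out whole within 0.001, and 0 sample columns were unmatched.

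The reported test was limma (3.58.1, R 4.3.3) with trend on log2(CPM + 1), in 1 fit of 3 group means over 6 libraries. The filter on low genes was filterByExpr (minimum count 10), and p-values were adjusted by Benjamini-Hochberg over 16804 genes. The test was checked on simulated reads of independent libraries, a setting that cannot speak to repeats of the same sample or to hour of collection. Alternatives were edgeR 4.0.16 and DESeq2 1.42.0 on recovered reads, TMM and RLE factors, CPM over nuclear genes, pseudocounts of 0.1 and 5, no filter, a filter of 1 CPM in 2 libraries, 4 libraries alone, a replicate block, and leaving out each library. edgeR called 918, 381 and 411 genes and DESeq2 948, 370 and 443 for RH/RQ vehicle against RH/+, treated against RH/RQ vehicle, and treated against RH/+. Coordinates and exon lengths are those of GENCODE M21 on GRCm38.

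The members and the gene lists were chosen with earlier results of these data known. Named were all members, each gene called on the lists of other clock genes, clock kinases and ligases, and rhythmic outputs (up to 6 a comparison), and the 5 genes of at least 5 CPM most like Arntl and Dbp. Other genes were named after their values were seen. A gene of the list of other clock genes is not reported here.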

Additional observations from a re-analysis of the deposited data

How the results depend on the processing

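Of 510 values of the 30 member differences under 17 alternatives, 465 kept their side of the threshold, 22 lost a call, 23 gained one and 0 called values changed sign. Without a filter on low genes, limma called 57 genes against 838 for RH/RQ vehicle against RH/+, 15 against 344 for treated against RH/RQ vehicle, and 7 against 480 for treated against RH/+. The members called were then 0 against 3, 1 against 4 and 0 against 1, although 6, 5 and 4 had an unadjusted p under 0.05, and edgeR called 5, 4 and 1. In RH/RQ vehicle against RH/+, edgeR and the fit of 4 libraries alone each called 5 members. A filter of 1 CPM in 2 libraries called 2 in treated against RH/+. Leaving out 1 library in turn gave 343 to 1156, 134 to 613 and 172 to 703 genes and 1 to 5, 3 to 4 and 1 to 3 members. The 1-member count in the comparison of vehicle groups came without RH/RQ vehicle replicate 2 (2 without RH/+ replicate 2, 5 without either treated library), and the 3-member count against RH/+ without treated replicate 2. With a lone library left in a group, its spread is assumed to be that of the others.

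TMM factors moved the split of higher and lower genes from 585 and 253 to 527 and 404, from 205 and 139 to 172 and 196, and from 391 and 89 to 237 and 164 in the same order. With them the median log2 fold change over all tested genes was -0.0002, -0.003 and -0.002, against 0.04, 0.04 and 0.08 without. Mitochondrial genes held 20.9 and 19.5% of reads in RH/+, 21.6 and 22.4% in RH/RQ vehicle, and 17.2 and 19.9% in treated libraries. The sample numbers of a group differ only in their first digit, and that digit was the replicate block. Whether it marks an animal, a batch or a repeat of the same sample is not stated. Over all tested genes, the difference of replicate 1 from replicate 2 correlated between groups with r of 0.13, -0.02 and 0.07. Such an r cannot show whether same-numbered libraries share a batch that touches some genes only. With the replicate block 1173, 567 and 715 genes and 5, 4 and 2 members were called, against 838, 344 and 480 genes without it. Ciart had 106 to 162 reads a library and Npas2 84 to 222, so counting error is larger for them than for the other members.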
